A study of Arabidopsis thaliana with 4 samples.

Results

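The genes described here are 38 Arabidopsis thaliana loci for cytosolic ribosomal proteins, taken by locus from the 33602 genes of the deposited table, and all 38 were found there. They comprise 19 genes for proteins of the large subunit, 3 for the stalk base protein P0, 15 for proteins of the small subunit and the gene for RACK1A, a propeller-shaped scaffold protein that sits on the head of the small subunit. They belong to 19 families of paralogous copies, and 14 of these families are represented by at least 2 of the 38 genes. RNA was sequenced from whole seedlings of the ecotype Columbia (Col) that had grown for 14 days in hydroponic medium lacking nitrogen (1/2 MS (-N), pH 5.7), at 22 °C with a 16-h light and 8-h dark period. There were 2 libraries of such seedlings, taken as 0 h, and 2 of seedlings moved for 0.5 h to the same medium with 2.5 mM glutamine (Gln), an amino acid that plants can use as a nitrogen source. No library of seedlings moved to medium without glutamine was among the samples, so glutamine, the transfer and the elapsed time cannot be told apart. The labels do not say whether the 2 libraries of a time came from separate cultures, so the p-values measure the spread between these libraries, which may be technical.

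The cytosolic ribosome joins amino acids in the order set by a messenger RNA. Its large subunit holds the peptidyl transferase centre, its small subunit reads the message, and most of its proteins stabilise ribosomal RNA or guide its folding during assembly. In plants nearly every ribosomal protein is made from several expressed gene copies. Nitrogen supply and the TOR kinase pathway are known to affect ribosome production and the phosphorylation of ribosomal protein S6, and many plant ribosomal protein promoters carry short elements known as the telo-box and site II.

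Both elements were looked up in the 300 bases before each annotated gene start in the TAIR10.1 assembly, as AAACCCTA for the telo-box and TGGGCC for site II, on either strand. TGGGCC and its reverse complement overlap within TGGGCCCA, where both were counted. Site II letters were present upstream of 18 of the 38 genes, or 47.4%, against 14.8% of 26711 protein-coding genes of the table and 57.2% of 194 other cytosolic ribosomal protein genes. The telo-box was present upstream of 4 of the 38 genes, or 10.5%, against 5.2% of all protein-coding genes and 24.2% of the other ribosomal protein genes. Those 4 genes were RPS5A, P40 and the genes AT2G19730 (L28) and AT5G27700 (S21), and the last was the gene with both elements. Genes with site II letters had a median level of 299 RPKM (the deposited unit, read number scaled by gene length and library depth, here averaged over the 4 libraries), and the 20 without had a median of 224 RPKM, with ranges of 10.8 to 562 and 6.35 to 436 RPKM. Of the 38 windows, 20 overlapped an annotated exon of another gene. The stretches next to the start and free of such exons are shown for 6 genes, chosen after their values were seen: the 3 copies for L10, which range from 10.8 to 562 RPKM in mean level and each carry site II, the main copy for protein SA (P40), and the genes with both elements or with the most site II letters. They are written on the strand of the gene, in lower case, with the elements in capitals, and come from the RefSeq copy of TAIR10.1.
SAC52 (L10, chr1:4887934-4888113, plus strand): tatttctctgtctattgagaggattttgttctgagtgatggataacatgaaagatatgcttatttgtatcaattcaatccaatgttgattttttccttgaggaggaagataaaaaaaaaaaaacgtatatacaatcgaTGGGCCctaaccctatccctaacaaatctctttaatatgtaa
SAG24 (L10, chr1:24838790-24839089, plus strand): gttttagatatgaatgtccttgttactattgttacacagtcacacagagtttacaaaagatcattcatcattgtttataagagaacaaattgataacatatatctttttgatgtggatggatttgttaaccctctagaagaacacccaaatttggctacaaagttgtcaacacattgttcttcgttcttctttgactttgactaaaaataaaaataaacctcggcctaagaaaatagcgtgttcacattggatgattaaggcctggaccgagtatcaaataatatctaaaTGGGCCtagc
RPL10B (L10, chr1:9321513-9321649, plus strand): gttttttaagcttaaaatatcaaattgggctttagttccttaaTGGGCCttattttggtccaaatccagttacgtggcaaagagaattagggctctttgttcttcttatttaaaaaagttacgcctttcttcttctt
P40 (SA, chr1:27244932-27245081, minus strand): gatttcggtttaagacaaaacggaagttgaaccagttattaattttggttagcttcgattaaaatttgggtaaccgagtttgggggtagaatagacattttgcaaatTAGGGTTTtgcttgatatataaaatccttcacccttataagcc
AT5G27700 (S21, chr5:9808514-9808813, minus strand): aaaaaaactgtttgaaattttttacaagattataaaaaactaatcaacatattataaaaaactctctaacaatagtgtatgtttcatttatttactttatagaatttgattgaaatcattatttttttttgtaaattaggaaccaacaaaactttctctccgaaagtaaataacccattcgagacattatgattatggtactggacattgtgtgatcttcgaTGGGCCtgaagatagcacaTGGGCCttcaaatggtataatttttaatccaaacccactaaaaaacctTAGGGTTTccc
AT3G53870 (S3, chr3:19951351-19951423, plus strand): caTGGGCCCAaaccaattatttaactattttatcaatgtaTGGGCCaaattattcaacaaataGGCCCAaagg
The L10 copies each hold site II letters once, starting 42 bases before the gene start in SAC52, 10 in SAG24 and 94 in RPL10B. AT3G53870 holds 4 matches, 2 of them overlapping. A match is a run of letters and not a measured binding site.

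Reads recovered from the deposited values totalled 26069129 and 27203579 at 0 h and 26075036 and 20429735 at 0.5 h. The 38 genes took 0.978% and 0.958% of the reads at 0 h and 1.02% and 0.958% at 0.5 h, so their summed share overlapped between the times. As a check of the tissue, none of 5 photosynthetic shoot markers or 7 root markers was at 0 in all libraries. The summed shoot markers were 26444 and 27236 RPKM at 0 h and 23024 and 23106 RPKM at 0.5 h, and the summed root markers were 178 and 305 RPKM at 0 h and 194 and 182 RPKM at 0.5 h. Of the shoot markers LHCA4, a light-harvesting protein of photosystem I, was called lower, with 1487 and 1576 RPKM at 0 h and 558 and 540 RPKM at 0.5 h (limma, adjusted p = 0.00528). The other shoot markers were not called, with log2 changes of 0.004 for RBCS1A, -0.26 for CAB1, -0.53 for RCA and 0.17 for GAPA. CAB1 made up most of the shoot sum, with 15739 and 15997 RPKM at 0 h and 13555 and 12922 RPKM at 0.5 h. PYK10 made up most of the root sum, with 158 and 273 RPKM at 0 h and 165 and 166 RPKM at 0.5 h. Replicates of the root marker PRP3 lay far apart, at 0.548 and 5.1 RPKM at 0 h and 5.26 and 0.516 RPKM at 0.5 h. The root markers CASP1, EXPA7 and SHV2 were likewise higher in replicate 2 at 0 h and in replicate 1 at 0.5 h. PYK10, TIP2;3 and MYB36 were not. CASP1 had 7.69 and 15.9 RPKM at 0 h and 13.1 and 8.64 RPKM at 0.5 h. EXPA7 and SHV2 averaged only 0.830 and 0.279 RPKM, with 1 to 49 and 3 to 29 reads in a library. The part of tissue composition in the values given for ribosomal protein genes was not tested. In RNA of whole seedlings, fewer cells of a type and less of an RNA per cell cannot be told apart.

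The 38 genes were highly expressed. Their mean level over the libraries had a median of 252 RPKM and ranged from 6.35 RPKM for the P0 gene AT2G40010 to 562 RPKM for SAC52, while the median of all tested genes was 12.6 RPKM. Of the 38, 33 were among the highest 10% of tested genes and 29 among the highest 5%. The exceptions at the low end were 5 genes under 100 RPKM, and each had a sister copy above it: RPL10B, RPSAb, the P0 genes AT2G40010 and AT3G11250, and the L9 gene AT4G10450.

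**Figure D1:**
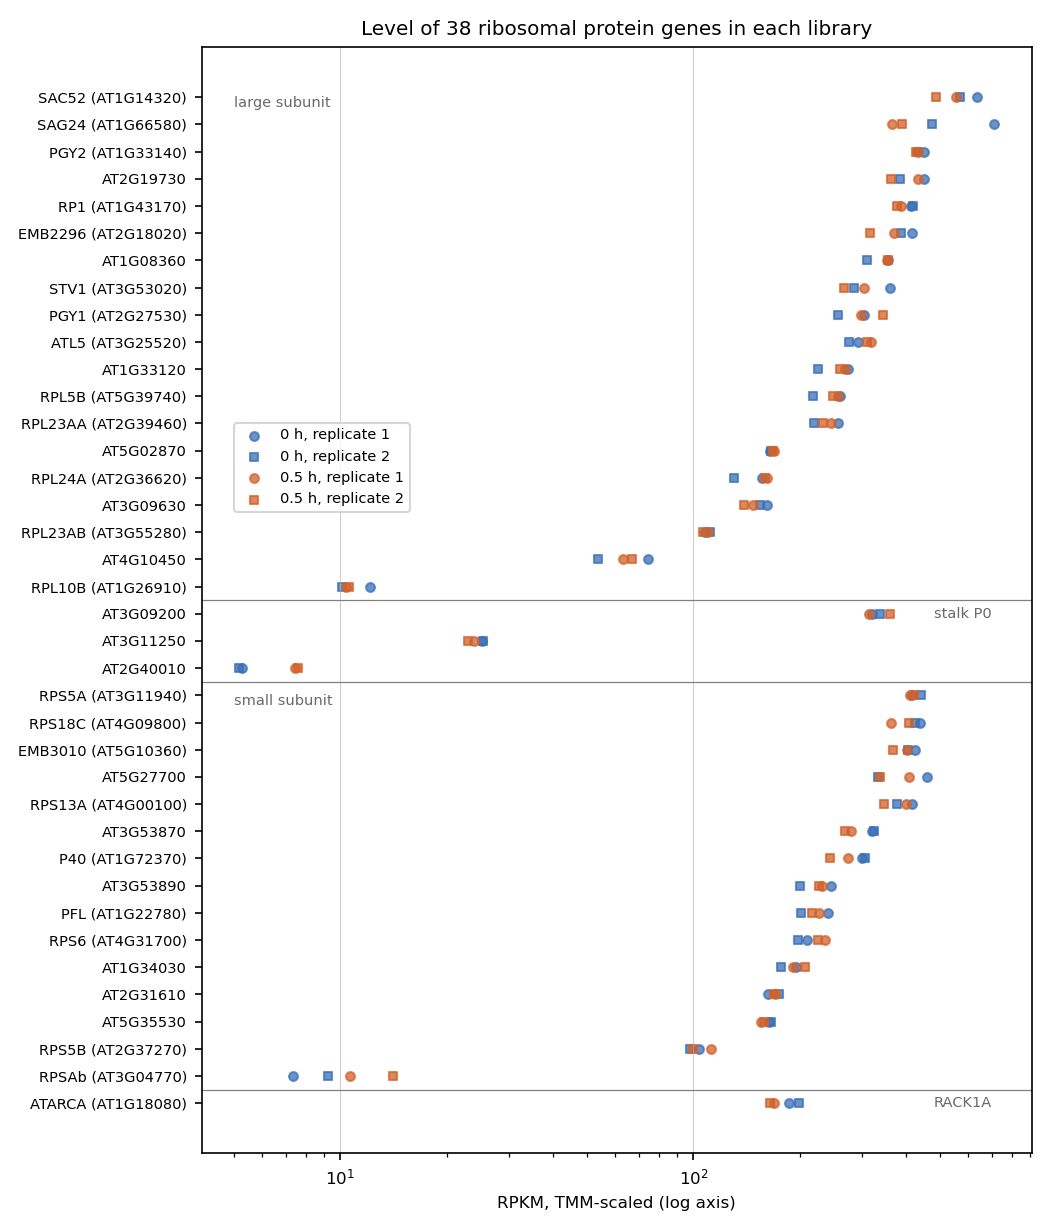
Level of each of the 38 genes in each library, as TMM-scaled RPKM on a log axis, ordered by mean level within the large subunit, the stalk, the small subunit and RACK1A. Circles and squares are replicates 1 and 2, blue is 0 h and orange 0.5 h. Most genes lie above 100 RPKM with the 4 points close together, and SAG24 at 0 h spreads from 475 to 712 RPKM.

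After 0.5 h with glutamine none of the 38 genes passed the test in either direction. The test was limma on log2(RPKM + 1) over the 18039 genes averaging 1 RPKM or more, with p-values adjusted by Benjamini-Hochberg and a threshold of 0.05, and all 38 genes entered it. Over all tested genes 6.71% were called higher and 5.11% lower. At an unadjusted p under 0.05 there were 3 of the 38 genes, against 28.7% of all genes. With limma-voom on the recovered reads, 0 of the 38 were called, against 13.3% of all genes, and 3 had an unadjusted p under 0.05, against 29.2%. The values of the 2 times did not overlap in 18 of the 38 genes, or 47.4%, against 59.7% of all tested genes. Without overlap and higher at 0.5 h were 6 of the 38, or 15.8%, against 27.1% of all tested genes, and without overlap and lower were 12 of the 38, or 31.6%, against 32.6%.

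The fitted differences were small. Fitted log2 changes were positive for 18 genes and negative for 20, with a median of -0.03, as over all tested genes (-0.03). The median size of the change, without its sign, was 0.10 for the 38 genes and 0.24 for all tested genes on the log2 scale. Among the 1490 tested genes with at least 100 RPKM, where 33 of the 38 lie, the median size was 0.26 and 257 genes, or 17.2%, were called. For 35 of the 38 genes the fitted change was within 0.25 of 0 on the log2 scale. The 95% interval of the change stayed within 2-fold in either direction for 37 genes, with SAG24 as the exception. For 35 genes, all but SAG24, RPSAb and AT2G40010, these intervals ran at most from 0.653-fold to 1.52-fold, with limma adjusted p-values from 0.339 to 0.982. Changes smaller than these bounds could not be resolved with 2 libraries at each time. In 23 genes the larger gap between replicates exceeded the fitted change between times.

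**Figure D2:**
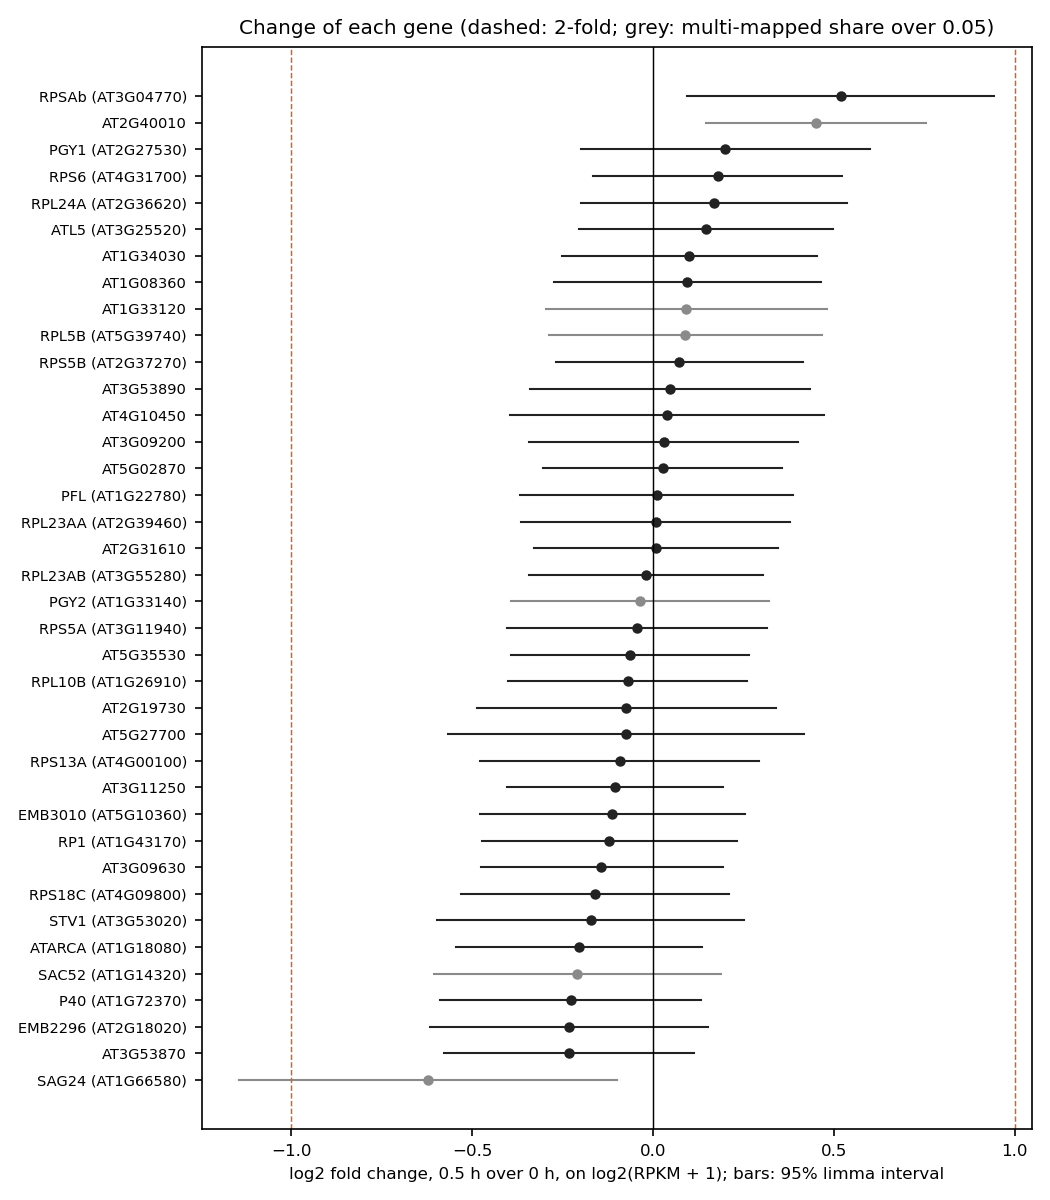
Fitted log2 change of each gene, 0.5 h over 0 h, on the log2(RPKM + 1) scale, with bars for the 95% interval of limma, sorted by size. Grey marks genes whose multi-mapped share exceeded 0.05 and dashed lines mark a 2-fold change. The intervals of 35 genes cross 0, and those of RPSAb, AT2G40010 and SAG24 do not, although none of the 3 passed after adjustment.

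In the large subunit, 9 of 19 genes had a positive and 10 a negative change, with a median of -0.02. Genes for L10, a protein that joins the large subunit late in its maturation, gave both the highest level and the most negative change. SAC52, a copy known from suppressor mutants of a dwarf plant, had 636 and 569 RPKM at 0 h and 556 and 485 RPKM at 0.5 h. Its groups did not overlap, and its log2 change of -0.21 ± 0.17 (limma SE, n = 2 and 2) had an adjusted p of 0.449. SAG24, a copy first described as associated with leaf senescence, had 712 and 475 RPKM at 0 h and 366 and 389 RPKM at 0.5 h. Both libraries at 0.5 h lay below both at 0 h, but the gap between the libraries at 0 h, 0.58 on the log2 scale, was the widest of the 38 genes. Its log2 change was -0.62 ± 0.22 (limma SE, n = 2 and 2; 95% interval -1.14 to -0.10), with an unadjusted p of 0.0258 and an adjusted p of 0.119. The size rested on the 0 h library kept: without replicate 1 at 0 h the change was -0.33 with a limma adjusted p of 0.352, and without replicate 2 at 0 h it was -0.92 with an adjusted p of 0.0347. The latter was the only one of the settings tried under which any of the 38 genes was called, and in both fits the lone 0 h library is assumed to vary like the other group. The minor copy RPL10B had 12.1 and 10.08 RPKM at 0 h and 10.4 and 10.6 RPKM at 0.5 h, with overlapping groups. The highest share of multi-mapped reads was 0.064 for SAC52, 0.098 for SAG24 and 0.045 for RPL10B.

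EMB2296, named for the arrested embryos of its mutant, encodes L8, a protein near the peptidyl transferase centre. It had 417 and 388 RPKM at 0 h and 369 and 317 RPKM at 0.5 h, among the 3 most negative changes of the 38 genes. The groups did not overlap, and the log2 change of -0.23 ± 0.16 (limma SE) had an adjusted p of 0.386. The change of EMB2296 ran from -0.34 to -0.12 when a library was left out. PGY1, a copy for L10a known from mutants in leaf patterning, had 304 and 258 RPKM at 0 h and 299 and 346 RPKM at 0.5 h. Its groups overlapped, and its log2 change of 0.20 ± 0.17 had a limma adjusted p of 0.476, although it was among the 3 most positive of the 38. The change of PGY1 ran from 0.08 to 0.32 when a library was left out. Its sister copy AT1G08360 had 355 and 311 RPKM at 0 h and 354 and 357 RPKM at 0.5 h, also overlapping.

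PGY2, which encodes L9, had 450 and 433 RPKM at 0 h and 434 and 426 RPKM at 0.5 h, with groups that overlapped. Its neighbour copy AT1G33120 had 274 and 225 RPKM at 0 h and 269 and 260 RPKM at 0.5 h. The coding sequences of these 2 copies are identical at 580 of 585 bases, or 99.1%, and up to 0.559 and 0.554 of their reads mapped to several places. How reads were divided between them is uncertain, while their sum with AT4G10450 was 798 and 711 RPKM at 0 h and 766 and 754 RPKM at 0.5 h. The third copy shares 80.3% and 80.0% of its coding bases with them and had 74.6 and 53.8 RPKM at 0 h and 63.1 and 67.1 RPKM at 0.5 h.

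STV1, a copy for L24 known for its role in translation of messages with upstream reading frames, had 361 and 286 RPKM at 0 h and 304 and 267 RPKM at 0.5 h. The other copy, RPL24A, had 156 and 131 RPKM at 0 h and 162 and 159 RPKM at 0.5 h. The 2 copies had fitted changes of opposite sign, -0.17 and 0.17 on the log2 scale, and neither passed (limma adjusted p of 0.562 and 0.513). RPL24A overlaps a gene on the opposite strand by 23 bases, and that gene, AT2G36610, was at or under 0.304 RPKM.

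ATL5 and RPL5B encode L5, which binds the smallest RNA of the large subunit. ATL5 had 293 and 276 RPKM at 0 h and 319 and 310 RPKM at 0.5 h, without overlap, and RPL5B had 260 and 218 RPKM at 0 h and 257 and 249 RPKM at 0.5 h, with overlap. The gene for L3 named RP1 had 414 and 420 RPKM at 0 h and 389 and 378 RPKM at 0.5 h, also without overlap, and a log2 change of -0.12 ± 0.15 (limma adjusted p = 0.635). The L4 genes, for a protein that lines the exit tunnel, did not overlap between times either, and their fitted changes had opposite signs: AT3G09630 had 161 and 155 RPKM at 0 h and 147 and 139 RPKM at 0.5 h, and AT5G02870 had 165 and 166 RPKM at 0 h and 170 and 168 RPKM at 0.5 h. None of these 5 genes passed the test. The remaining genes of the large subunit had overlapping groups. AT2G19730 (L28) had means of 418 ± 45.4 RPKM at 0 h and 397 ± 49.2 RPKM at 0.5 h (SD, n = 2 each). RPL23AA had means of 239 ± 27.0 and 239 ± 8.24 RPKM, and RPL23AB, which encodes the same protein type at the tunnel exit, had 110 ± 2.42 and 108 ± 2.91 RPKM.

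At the stalk base, P0 anchors the acidic proteins that recruit elongation factors. AT3G09200 provided nearly all of its message, with 322 and 337 RPKM at 0 h and 314 and 360 RPKM at 0.5 h, and its groups overlapped. AT2G40010 had 5.26 and 5.17 RPKM at 0 h and 7.42 and 7.57 RPKM at 0.5 h. Its replicates lay close together and its groups did not overlap, with a log2 change of 0.45 ± 0.13 (limma SE, n = 2 and 2; 95% interval 0.15 to 0.76), an unadjusted p of 0.0101 and an adjusted p of 0.0693. This is the smallest p of the 38 genes, and it belongs to the gene with the lowest level and the largest share of multi-mapped reads, 0.808. Over 1185 bases the gene overlaps a non-coding gene on the opposite strand, AT2G40008, which was at 0.319 RPKM or less. The share of multi-mapped reads of AT2G40008 was 0.789. Recovered reads of AT2G40010 were 145.53 and 159.51 at 0 h and 232 and 179.49 at 0.5 h. Those of AT2G40008 were 9.47 and 3.49 at 0 h and 0 and 3.51 at 0.5 h. No source used here states whether counting used the strand, without which reads of the bases both genes cover cannot be told apart. In each library the recovered reads of the 2 genes add up to a whole number, to within 0.05 read. Whether the whole share of 0.808 came from reads divided between these genes was not tested. The third P0 copy, AT3G11250, had 25.2 and 25.4 RPKM at 0 h and 23.9 and 23.0 RPKM at 0.5 h, without overlap but with a limma adjusted p of 0.622.

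In the small subunit, 7 of 15 genes had a positive and 8 a negative change, with a median of -0.04. P40 and RPSAb encode protein SA, which takes part in maturation of the small subunit. P40 had 300 and 306 RPKM at 0 h and 274 and 244 RPKM at 0.5 h, and RPSAb had 7.35 and 9.25 RPKM at 0 h and 10.6 and 14.1 RPKM at 0.5 h. The groups overlapped in neither gene, and the changes had opposite signs. RPSAb had the most positive change of the 38 genes, 0.52 ± 0.18 on the log2 scale (limma SE, n = 2 and 2; 95% interval 0.09 to 0.94), with an unadjusted p of 0.0235 and an adjusted p of 0.112. Leaving out a library at 0.5 h moved the change of RPSAb to 0.71 without replicate 1 and 0.33 without replicate 2, with limma adjusted p-values of 0.0541 and 0.362. P40 had a log2 change of -0.23 ± 0.15 and a limma adjusted p of 0.367. RPSAb overlaps a gene on its own strand, AT3G04780, by 132 bases, and that gene was at 54.6 to 76.1 RPKM, well above RPSAb. RPSAb and AT3G04780 both had a multi-mapped share of 0, and the overlap was read from the TAIR10.1 annotation. The part of reads from AT3G04780 in the values of RPSAb was not tested.

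Among the 3 genes for S3, a protein at the entry of the messenger RNA channel, AT3G53870 was the main copy. It had 320 and 326 RPKM at 0 h and 280 and 269 RPKM at 0.5 h, and its log2 change of -0.23 ± 0.15 was among the 3 most negative of the 38, with a limma adjusted p of 0.339. Replicates were close and the groups did not overlap, yet the limma interval, which pools the spread over genes, reached from -0.58 to 0.11. The other copies had 163 and 175 RPKM at 0 h and 170 and 169 RPKM at 0.5 h for AT2G31610, and 164 and 166 RPKM at 0 h and 156 and 159 RPKM at 0.5 h for AT5G35530.

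S6 is the ribosomal protein phosphorylated by the S6 kinases downstream of TOR. The gene RPS6 had 211 and 197 RPKM at 0 h and 236 and 225 RPKM at 0.5 h, and EMB3010, the other copy, had 426 and 407 RPKM at 0 h and 403 and 367 RPKM at 0.5 h. Neither gene overlapped between the times, RPS6 being higher and EMB3010 lower at 0.5 h, with log2 changes of 0.18 ± 0.15 and -0.11 ± 0.15 (limma adjusted p of 0.461 and 0.67). The summed level of the 2 genes was 636 and 604 RPKM at 0 h and 640 and 592 RPKM at 0.5 h, which overlapped. Of the TOR pathway, 6 of 7 listed genes were tested, with 1 called higher, 0 lower and a median change of -0.14. The gene called higher was S6K2, a kinase of S6, with 25.5 and 25.1 RPKM at 0 h and 61.7 and 65.3 RPKM at 0.5 h, a log2 change of 1.29 ± 0.13 (limma adjusted p = 0.00469). The gene of the other S6 kinase, PK1, had 52.4 and 47.2 RPKM at 0 h and 53.9 and 48.1 RPKM at 0.5 h, and TOR itself had 7.28 and 7.64 RPKM at 0 h and 6.37 and 5.11 RPKM at 0.5 h, without passing (adjusted p = 0.193).

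RPS5A, a copy for S5 that is required in dividing cells of the embryo, had 416 and 441 RPKM at 0 h and 410 and 421 RPKM at 0.5 h, and RPS5B had 104 and 97.8 RPKM at 0 h and 112 and 99.8 RPKM at 0.5 h. Both genes overlapped between times. RPS18C, the main copy for S18, had 438 and 423 RPKM at 0 h and 363 and 408 RPKM at 0.5 h. Its groups did not overlap, and its log2 change of -0.16 ± 0.16 had a limma adjusted p of 0.538. PFL, the S18 copy named for the pointed first leaves of its mutant, had means of 222 ± 28.0 RPKM at 0 h and 222 ± 7.61 RPKM at 0.5 h, and AT1G34030 had 186 ± 12.4 and 200 ± 10.8 RPKM (SD, n = 2 each). RPS13A had means of 397 ± 27.2 and 373 ± 38.01 RPKM, and the S21 genes AT5G27700 and AT3G53890 had 396 ± 88.1 and 373 ± 51.2 RPKM and 223 ± 32.4 and 229 ± 3.63 RPKM. All of these 5 genes had overlapping groups.

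RACK1A (symbol ATARCA) had 186 and 200 RPKM at 0 h and 169 and 165 RPKM at 0.5 h. Its groups did not overlap, and its log2 change of -0.21 ± 0.14 (limma SE) had an adjusted p of 0.387. The gene took 75.2% and 77.3% of the summed level of the 3 RACK1 genes at 0 h and 70.6% and 69.3% at 0.5 h. RACK1B had 44.2 and 39.0 RPKM at 0 h and 46.5 and 47.3 RPKM at 0.5 h, and RACK1C had 17.2 and 19.9 RPKM at 0 h and 24.0 and 25.7 RPKM at 0.5 h. Neither passed, with log2 changes of 0.17 and 0.41 and limma adjusted p-values of 0.446 and 0.107. The sum of the 3 genes was 247 and 259 RPKM at 0 h and 240 and 238 RPKM at 0.5 h.

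Summing the RPKM of all listed copies of a family gives a level that depends less on how reads were divided between copies of similar length. Reads shared with genes outside the family, such as AT2G40008, are not covered by the sum. None of the 19 sums was called, against 11.9% of all tested genes in that limma fit, and none had an unadjusted p under 0.05, against 28.8%. Log2 changes of the sums ran from -0.40 for L10 to 0.13 for L10a, with 95% intervals between -0.84 and 0.52 and limma adjusted p-values from 0.215 to 0.992. The share of a copy within its family differed by a median of 4.05 percentage points between its lowest and highest library. The widest range was that of SAG24, with 52.4% and 45.0% at 0 h and 39.2% and 43.9% at 0.5 h, a range of 13.2 points. SAC52 took 46.7% and 54.0% at 0 h and 59.7% and 54.9% at 0.5 h, so the copy with the larger share differed between the replicates at 0 h. For S6, RPS6 took 33.1% and 32.7% at 0 h and 37.0% and 38% at 0.5 h. STV1 took 69.8% and 68.7% of the L24 sum at 0 h and 65.2% and 62.7% at 0.5 h. RPSAb took 2.39% and 2.93% of the SA sum at 0 h and 3.73% and 5.47% at 0.5 h. At the extremes of copy use, AT3G09200 held 90.9 to 92.2% of P0, RP1 95.5 to 96.6% of L3, and RPL10B 0.891 to 1.2% of L10. These shares are descriptions, and differences in them were not tested.

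**Figure D3:**
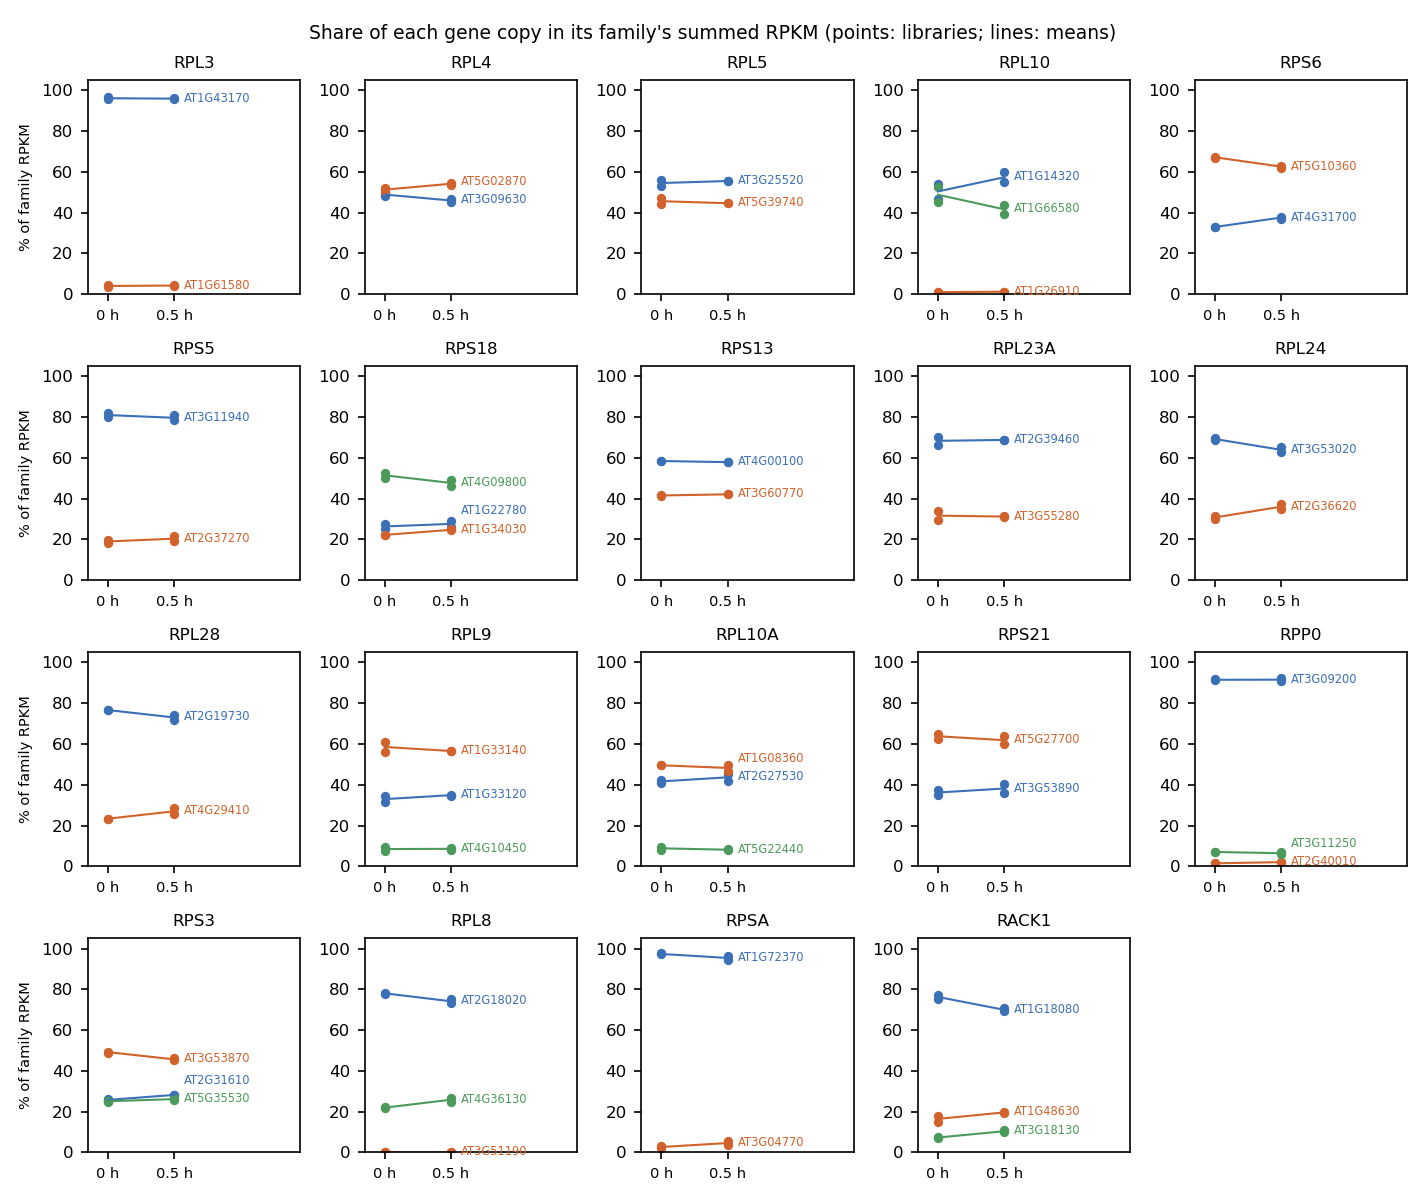
Share of each gene copy in the summed RPKM of its family, in percent, for the 19 families at 0 h and 0.5 h. Points are libraries and lines join the means of the 2 libraries of a time. The L10 panel shows the widest range, with SAG24 (AT1G66580) between 39.2% and 52.4%.

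The other genes of translation were read from lists beside these 38. Of 194 other cytosolic ribosomal protein genes 177 were tested, with 1 called higher, 1 lower and a median change of 0.09, and 130 of the 177 had a positive change. The gene called higher was AT4G30800 (S11), with 6.64 and 5.87 RPKM at 0 h and 9.74 and 9.36 RPKM at 0.5 h (log2 change 0.54 ± 0.13, limma adjusted p = 0.0442). AT4G30800 lost this call whichever library was left out, with limma adjusted p-values of 0.0913 to 0.208, and was called in 7 of the 16 other settings. The gene called lower was UBQ6, which encodes ubiquitin joined to a ribosomal protein, with 254 and 209 RPKM at 0 h and 0 recovered reads in both libraries at 0.5 h, and all its reads mapped to several places in at least 1 library. Most of the other genes lay between -0.20 and 0.42 on the log2 scale (5th to 95th percentile). The most positive change, 3.11, was that of both AT1G58684 and AT1G58983, which were not called (limma adjusted p = 0.278). AT1G59359, at -0.83, was not called either (limma adjusted p = 0.31). The median of the 38 was 0.12 lower than that of the 177, a difference that was not tested.

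The 2 sets of ribosomal protein genes differ in length, and so do the replicates. Of 101 ribosomal protein genes under 0.75 kb only 3 were among the 38. In these 101 genes replicate 1 exceeded replicate 2 at 0 h by a median of 0.32 on the log2 scale, and the median change between times was 0.12. In the 40 ribosomal protein genes of 1 to 1.5 kb the corresponding medians were 0.07 and 0.04. All tested genes showed the same order for the replicates, with 0.25 under 0.75 kb and 0.07 at 1 to 1.5 kb. Their median change between times was 0.024 under 0.75 kb and -0.046 at 1 to 1.5 kb. Within the 38 genes, the median gap between replicates at 0 h was 0.22 for the 19 genes under 1 kb and 0.08 for the 19 longer ones. The median change between times was -0.07 for the 19 genes under 1 kb and 0.007 for the 19 longer ones. Replicate 1 was the higher at 0 h in 26 of 38 genes, against 57.1% of all tested genes. The part of this length-related gap in the values of single genes was not tested.

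**Figure D4:**
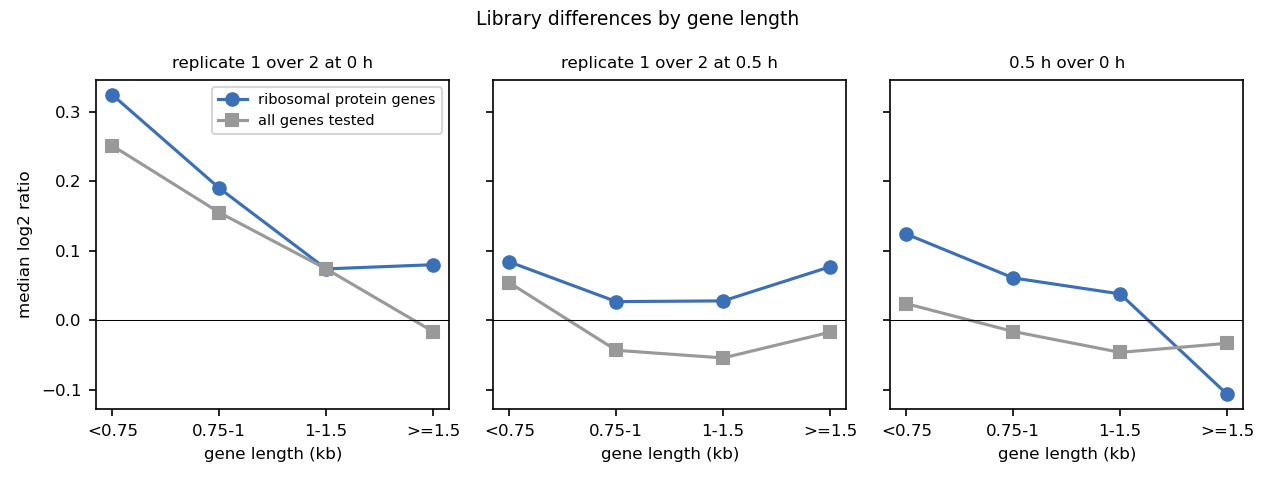
Median log2 ratio between libraries by gene length in kb, for ribosomal protein genes (blue circles, the 38 genes and 177 others) and all tested genes (grey squares). From left to right the panels give replicate 1 over 2 at 0 h, replicate 1 over 2 at 0.5 h, and 0.5 h over 0 h. At 0 h the ratio of the replicates is 0.32 in ribosomal protein genes under 0.75 kb and 0.07 at 1 to 1.5 kb.

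Among 35 genes for ribosome biogenesis, all tested, 0 were called by limma, with a median change of 0.08. An unadjusted limma p under 0.05 was found for 6 of the 35, against 28.7% of all tested genes. The most highly expressed were FIB1, for the methylation factor fibrillarin, with 174 and 164 RPKM at 0 h and 150 and 155 RPKM at 0.5 h, and NUC-L1, for nucleolin, with 170 and 156 RPKM at 0 h and 131 and 124 RPKM at 0.5 h. NUC-L1 did not overlap between the times but did not pass (log2 change -0.35 ± 0.14, limma adjusted p = 0.165). Of 33 genes for translation initiation and elongation factors 0 were called higher and 1 lower, with a median change of -0.15. That gene was ELF5A-1, with 32.9 and 33.3 RPKM at 0 h and 21.0 and 16.6 RPKM at 0.5 h (log2 change -0.79 ± 0.15, limma adjusted p = 0.022). FBR12, which RefSeq also names a 5A factor, had the highest level of this list, with 965 and 785 RPKM at 0 h. At 0.5 h FBR12 had 844 and 809 RPKM and was not called (log2 change -0.075 ± 0.178, limma adjusted p = 0.811). ELF5A-1 lost the call without replicate 1 at 0 h, replicate 2 at 0 h or replicate 2 at 0.5 h, with limma adjusted p-values of 0.0895, 0.0861 and 0.0852. Of 37 genes for ribosomal proteins of the plastid, which has its own ribosomes, 0 were called higher and 1 lower, with a median change of -0.12. That gene was AT5G24490, which RefSeq names a 30S ribosomal protein and whose highest share of multi-mapped reads was 0.101. It had 842 and 742 RPKM at 0 h and 355 and 337 RPKM at 0.5 h (log2 change -1.19 ± 0.16, limma adjusted p = 0.00846). AT5G24490 lost the call without replicate 2 at 0.5 h, with an adjusted p of 0.0573.

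**Figure D5:**
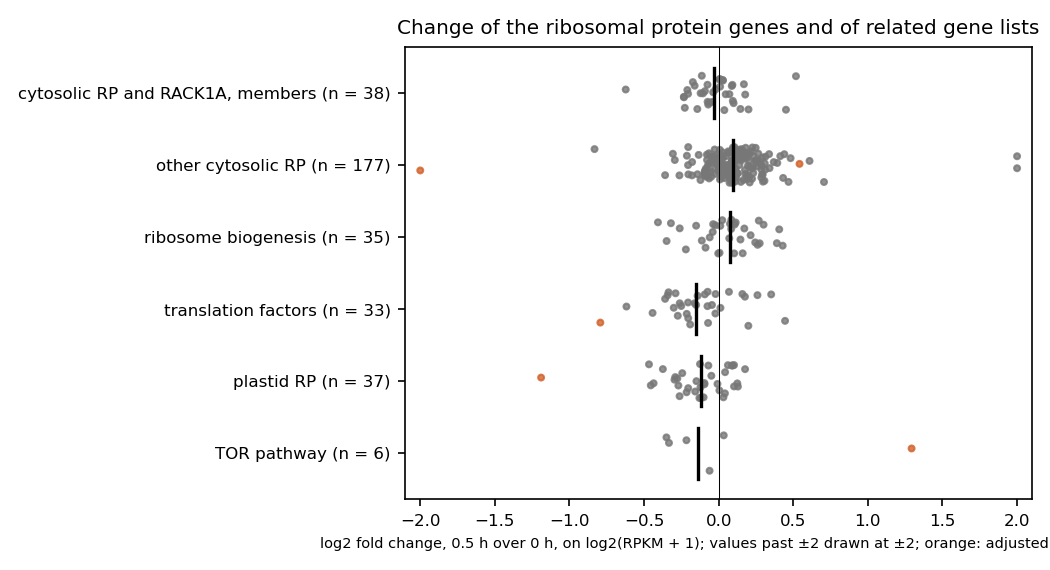
Fitted log2 change of each tested gene, 0.5 h over 0 h, on the log2(RPKM + 1) scale, for the 38 genes (top) and 5 related lists, with black bars at the medians. Orange marks an adjusted p under 0.05, and changes beyond 2 in either direction are drawn at 2. The 38 genes lie around 0 with a median of -0.03, and S6K2 stands out in the TOR list at 1.29.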

How the data were processed

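RNA of 4 libraries was analysed. The authors deposited RPKM values per gene, scaled with TMM (trimmed mean of M-values) by the name of the table. The deposited table also holds gene lengths and, per gene, a fraction that its header calls the highest ratio of multi-mapped reads. The TAIR10 build and SAMtools are named per the submitters' processing notes, and the library kit was TruSeq RNA, per the labels' protocols. The sources used here name no aligner, counter or strand setting.

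RPKM multiplied by length lies on even steps in each library, with 0.5 read added per gene. Dividing by the step gave whole reads, to within 0.05 read, in 100.0% of the genes that had no multi-mapped reads. In the 8753 others, 47.5 to 51.7% came out whole. Among the 38 genes 13 had a multi-mapped share of 0 and 6 a share above 0.05. The recovered depths, 20429735 to 27203579 reads, gave the 38 genes between 145.53 and 17782 reads in a library.

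Genes averaging 1 RPKM or more were fitted with limma 3.58.1 in R 4.3.3 on log2(RPKM + 1), which understates changes of low genes, with an intensity trend and the time as the only term. P-values were two-sided and adjusted over all 18039 genes. Residual degrees of freedom were 2, and limma's prior added 4.824. An exact permutation test of 2 against 2 libraries cannot give a p below 0.333 and was not used. The code was tested on simulated data. Names, overlaps and sequences came from the RefSeq annotation of TAIR10.1, where all 38 loci were found. No coordinates came from the deposited table. Coding sequences were aligned with Biopython 1.88 in place of proteins, which were not used here. Python 3.11.15, pandas 2.3.3, numpy 2.4.6, scipy 1.17.1 and matplotlib 3.10.9 were used.

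The 38 genes and the lists were chosen with earlier results of these data known. The list of 194 other cytosolic ribosomal protein genes was written from general knowledge, and RefSeq gives "ribosomal" in the product name of 176. Values in every library were to be given for the 5 highest members, the 3 largest rises and falls and any called member, and other members were added after their values were seen. Of the lists, the genes with the smallest p or the highest level were eligible. Alternatives were pseudocounts of 0.1 and 5, no minimum or a minimum of 5 RPKM, median-of-ratios and quantile scaling, limma without the trend or robust, a replicate block, leaving out each library, organelle genes or genes with a multi-mapped share above 0.05, limma-voom on recovered reads, and summed families.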

Additional observations from a re-analysis of the deposited data

How the results depend on the processing

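Of 17 other settings, summed families gave 19 sums in place of genes, and leaving out a high multi-mapped share kept 32 of the 38 genes. Under these settings 0 members were called higher, and the count called lower ranged from 0 to 1 when a library was left out and was 0 otherwise. The gene was SAG24, without replicate 2 at 0 h. Over the 15 or 16 settings that fitted a given gene, the sign was kept throughout for 22 genes and changed at least once for 16, whose fitted changes were at most 0.09 in size. The median change ranged from -0.10 without replicate 2 at 0 h to 0.05 with quantile scaling, where all tested genes had a median of -0.03. Of the other cytosolic ribosomal protein genes, 2 were called higher with limma-voom, 4 with median-of-ratios or quantile scaling, 3 with a minimum of 5 RPKM, with robust estimation or without genes of a multi-mapped share above 0.05, and 0 with no minimum, with summed families or without the trend. With a library left out, 0 to 3 were called higher and 1 to 2 lower. With summed families or without genes of a high multi-mapped share, 0 were called lower. UBQ6, the gene called lower in the main fit, entered neither of these fits as a single gene. Its multi-mapped share of 1.0 excluded it from the latter, and its family was summed in the former. Fewer genes or libraries entered some of the fits, and the causes of the other differences were not tested. Counts over all genes fell from 2133 to 777 without replicate 2 at 0.5 h, 778 without replicate 1 at 0 h and 926 without replicate 2 at 0 h, and to 2 with no minimum, where the named S6K2, LHCA4, ELF5A-1, AT5G24490 and AT4G30800 lost their calls. Replicate numbers did not deviate together (correlation -0.08), so they are not shown to pair the samples. With a replicate block 0 of the 38 genes were called higher and 0 lower, against 1961 of all genes.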
